A study of Nasonia vitripennis with 2 samples.

Results

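Windows of intermediate CpG density in the genome of the parasitoid wasp Nasonia vitripennis were examined. Each scaffold was divided into adjoining windows of 1000 bp from its first base, and a window was kept when 35 to 57 CpGs were listed in it and at least 10 of these had 10 or more reads. Of the 61867 windows with 35 to 57 CpGs, 51091 were kept and 10776 had too few sites with 10 reads. The 51091 windows were 24.3% of the 210344 windows of any CpG number that had at least 10 such sites, and 250325 windows held at least 1 CpG. They lay on 2536 scaffolds, and 355 were the last window of their scaffold and may be shorter than 1000 bp. CpG number and read depth alone chose the windows, and no methylation value was used in the choice.

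The DNA came from the whole bodies of 1 pool of 50 adult females, 24 h old, of the standard strain AsymCX, with no treatment and no second group. It was sequenced after bisulfite conversion, which turns non-methylated cytosines into uracil and leaves methylated ones as C. The library was run in 2 lanes, of which one was on a HiSeq2000 and the other on an older GAIIx instrument, and the deposited table sums their reads, so that the spread between lanes or animals could not be measured. A percentage at a site is therefore an average over all tissues of the pooled wasps, and sites methylated in few cells cannot be told apart from sites methylated at a low level in many.

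The table lists 14024488 CpGs on 6183 scaffolds, of which 1032734 have no read, so that the CpG number of a window does not depend on its depth. A CpG with 10 or more reads is called covered, and a covered CpG with more than 10% methylated reads is called an mCpG. There were 7818889 covered CpGs and 116929 mCpGs. The chosen windows held 1551780 covered CpGs, which is 19.8% of all covered CpGs, and 19826 mCpGs, which is 17.0% of all mCpGs. The methylation of a window is the percentage of methylated reads among those at its covered CpGs, pooled. Shares carry 95% Wilson intervals, and differences of shares Newcombe intervals. Windows and sites are not replicates, neighbouring windows can share a methylated stretch and a read can span several CpGs, so that these intervals cover counting error only and may be too narrow.

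In insects DNA methylation is sparse and is placed mainly over the bodies of genes, above all over exons, and the genes that carry it are mostly expressed in many tissues and stages. A methylated cytosine that loses its amino group becomes thymine, so that sequence methylated in the germ line tends to lose CpGs over evolutionary time, whereas non-methylated sequence keeps them. CpG number is for this reason often read as a record of past methylation. Windows of 35 to 57 CpGs lie between the CpG-poor windows, among which methylation was frequent, and the CpG-rich windows, among which it was rare.

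Most of the 51091 windows were close to free of methylation, and a small share was clearly methylated. At least 1 mCpG was present in 4114 windows, or 8.05% (7.82 to 8.29%), beside 7.88% of all 210344 windows. Methylation above 10% was found in 1655 windows, or 3.24% (3.09 to 3.40%), beside 4.47% of all windows. At least 4 mCpGs were found in 1932 windows, or 3.78%, beside 4.65% of all windows. The share of windows with any mCpG was thus near that of the genome, while the shares with 4 or more mCpGs and above 10% were below it. Pooled over all their reads, the windows were 0.956% methylated (0.953 to 0.959%). In windows of 2000 bp with the same range of CpGs per bp 13.4% held an mCpG and 5.74% were above 10%.

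The windows took a middle place between the neighbouring classes of density in each of these measures. Windows of 1 to 34 CpGs were 5.78% methylated, with 20.6% holding an mCpG and 15.2% above 10%. Windows of 58 or more CpGs were 0.167% methylated, with 2.15% holding an mCpG and 0.290% above 10%. Depth differed between the classes in the same order, with 28.9 reads per covered CpG in the windows of 35 to 57 CpGs, 35.7 reads at 1 to 34 CpGs and 22.3 reads at 58 or more.

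The spread of window methylation was strongly skewed. No methylated read was seen in 17998 windows (35.2%), and 27374 windows (53.6%) were above 0 and up to 0.5%. The median window was at 0.126%, the upper quartile at 0.267%, the 90th percentile at 0.559%, the 95th at 3.34% and the 99th at 31.1%. The most methylated window reached 90.5%. The bulk of the windows thus sat well below 1%, and the rest formed a long tail. The study's non-methylated control DNA kept a larger share of unconverted cytosines than the upper quartile of the windows. Such low levels can therefore not be told apart from incomplete conversion.

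Counted in classes that exclude their lower and include their upper limit, the tail extended above 80%. The classes widen with level, so that their counts do not show how fast the tail thinned out. There were 2155 windows between 0.5 and 1%, 1338 between 1 and 5%, 571 between 5 and 10%, and 721 between 10 and 20%. A further 626 windows fell between 20 and 40%, 246 between 40 and 60%, 53 between 60 and 80%, and 9 above 80%. Methylation above 40% was reached by 308 windows, or 0.603%, beside 2.02% of all windows.

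**Figure D1:**
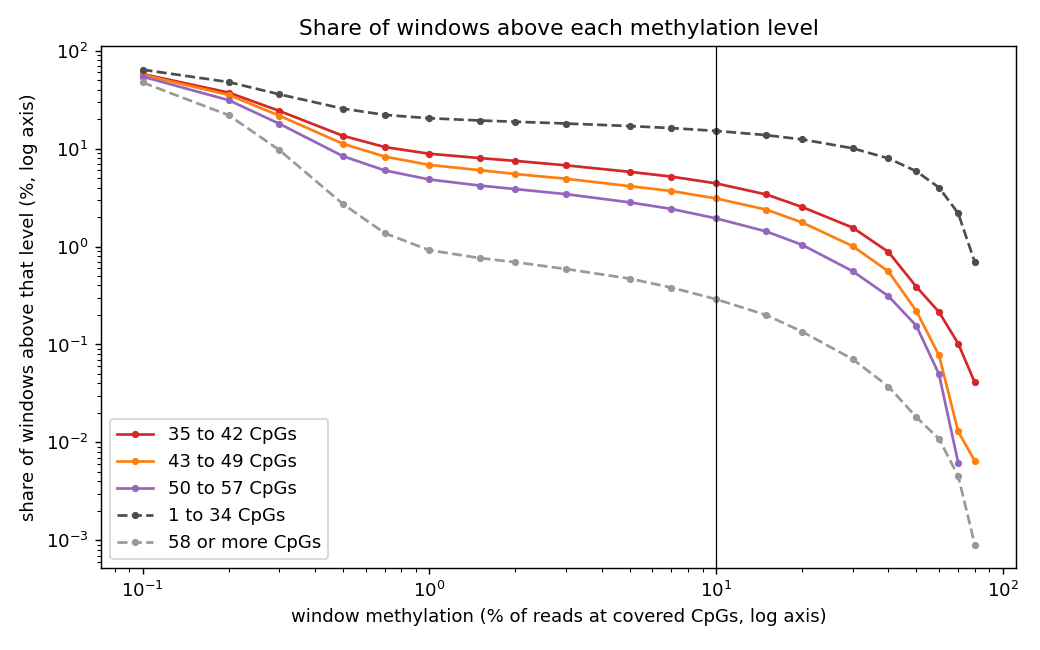
Share of windows (vertical axis, percent, log scale) whose methylation was above the level on the horizontal axis (percent of reads at covered CpGs, log scale), for 3 bands of the chosen windows (solid lines) and for windows of 1 to 34 and of 58 or more CpGs (dashed lines). The vertical line marks 10%, where the shares were 4.42, 3.10 and 1.94% in the 3 bands, and each line is flatter between 1 and 10% than on either side. Lines end at the last level that any window exceeded.

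The 1655 windows above 10% carried most of the signal. They held 69.3% of the methylated reads of all 51091 windows, and their own methylation had a median of 22.2% with quartiles of 15.4 and 35.4%. In windows of 1 to 34 CpGs above 10% the median was 41.8%, and in those of 58 or more CpGs it was 18.8%. The depth of the 1655 windows was 26.1 reads per covered CpG, against 29.0 reads in windows up to 10%. In the 46977 windows without any mCpG the pooled level was 0.149%, below the unconverted share of the study's control DNA.

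Methylation became rarer as CpG number increased. The share of windows above 10% was 5.27% at 35 CpGs, 3.25% at 45 CpGs and 1.23% at 57 CpGs. The share with at least 1 mCpG was 10.8% at 35 CpGs, 8.55% at 45 CpGs and 4.80% at 57 CpGs. Pooled methylation was 1.54, 1.01 and 0.464% at the same 3 CpG numbers. Over the 22 steps of 1 CpG the share above 10% went down in 18 and up in 4, with a mean change of -0.169 percentage points per step and a largest one of -0.746 points into 39 CpGs.

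Single steps were too small to be seen at this number of windows. Each CpG number was represented by 1884 to 2548 windows, and for all 22 pairs of adjoining CpG numbers the interval of the difference in the share above 10% included 0. Taken over groups of 3 CpG numbers the shift was clear. Of the 7460 windows with 35 to 37 CpGs 377 were above 10% (5.05%), and of the 5868 windows with 55 to 57 CpGs 83 were (1.41%), a difference of 3.64 percentage points (3.06 to 4.23) and a ratio of 3.57.

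**Figure D2:**
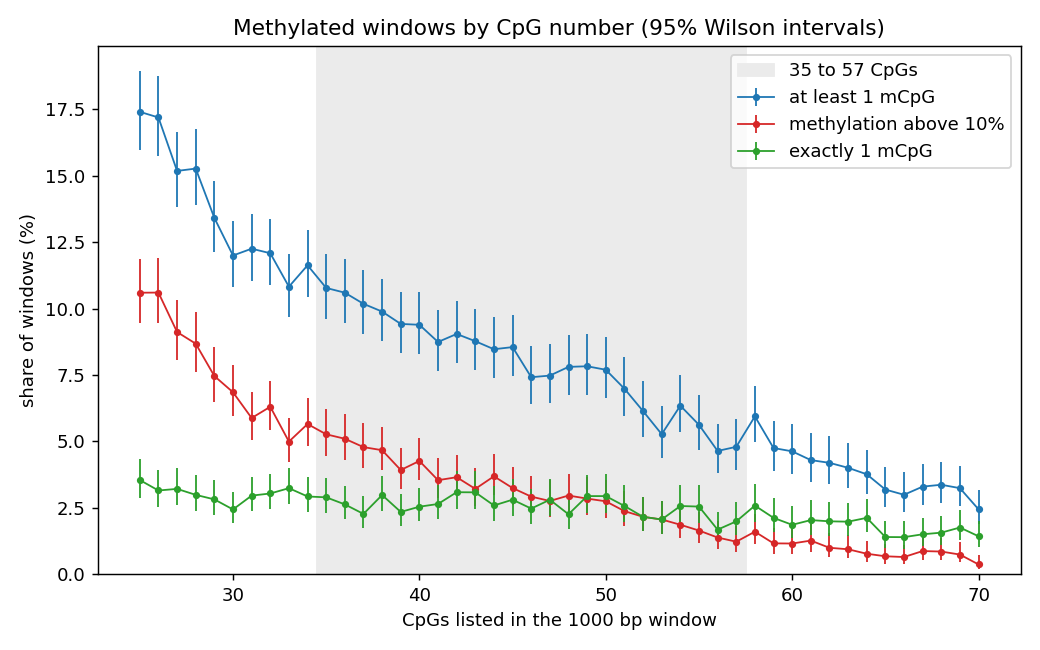
Share of windows (vertical axis, percent) with at least 1 mCpG, with methylation above 10% and with exactly 1 mCpG, by the number of CpGs in the window (horizontal axis), with 95% Wilson intervals as bars. The grey area marks 35 to 57 CpGs, inside which the share above 10% goes down to 1.23% at 57 CpGs while the share with exactly 1 mCpG stays between 1.68 and 3.09%.

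The gradient was steepest for heavily methylated windows and slight for windows with a single mCpG. The ratio of the share at 35 to 37 CpGs over that at 55 to 57 CpGs was 5.90 for windows above 40% (1.01 and 0.170%) and 3.05 for windows with 4 or more mCpGs (5.66 and 1.86%). It was 2.08 for windows with 2 or 3 mCpGs (2.27 and 1.09%) and 1.26 for windows with exactly 1 mCpG (2.60 and 2.06%, difference 0.539 percentage points, 0.0181 to 1.05). The upper tail of the spread moved accordingly, with the 95th percentile at 10.5% at 35 CpGs and 0.719% at 57 CpGs, while the median window was at 0.150 and 0.109%. The ratios of these classes were not compared by a test.

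The edges of the chosen range were not special. Just outside, 5.66% of windows with 34 CpGs were above 10%, close to the 5.27% at 35 CpGs, and 1.60% of windows with 58 CpGs were, beside 1.23% at 57 CpGs. Of the 675 windows with exactly 10 covered CpGs 9 were above 10% (1.33%), and of the 623 windows of the same density with 9 covered CpGs, which were not kept, 8 were (1.28%). Windows near the coverage limit were thus less often above 10% than the kept windows as a whole. This did not hold above 40%, with 8 of the 675 (1.19%) and 5 of the 623 (0.803%), beside 0.603% of all kept windows. These counts are small.

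Depth and coverage changed along the same steps. The mean depth was 31.7 reads per covered CpG at 35 to 37 CpGs and 26.7 at 55 to 57 CpGs, and 72.5 and 63.2% of the listed CpGs were covered. The mean number of covered CpGs per window nonetheless went up, from 26.1 to 35.4. More covered CpGs give more sites at which a single mCpG can be called, and the part of this in the gradients was not tested. The pooled level of windows without any mCpG moved little, with 0.165% at 35 to 37 CpGs and 0.138% at 55 to 57 CpGs. Both lie below the unconverted share of the study's control DNA. Within bands of depth the share above 10% was 5.62% at 35 to 42 CpGs and 1.95% at 50 to 57 CpGs for windows of 20 to 30 reads per covered CpG (difference 3.67 percentage points, 3.10 to 4.25), and 3.30 and 1.30% for those of 30 to 50 reads (2.00 points, 1.45 to 2.53). It was 4.61 and 2.79% for 15 to 20 reads (1.83 points, 0.831 to 2.87). Among the 1810 windows of 10 to 15 reads no difference was detectable, with 2.50 and 2.38% (0.122 points, -1.62 to 2.07), and likewise among the 1218 windows of 50 or more reads, with 1.96 and 0.873% (1.09 points, -1.31 to 2.59).

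The level of the mCpGs themselves can be given along the steps for windows above 10%, which are chosen by their methylation, so that these levels are a description. The median mCpG in them was at 75% at 35 to 37 CpGs and at 73.5% at 55 to 57 CpGs. These windows held 75.8% of the methylated reads of all windows at 35 to 37 CpGs and 50.3% at 55 to 57 CpGs. They were 5.05 and 1.41% of the windows there. Windows without any mCpG held 8931 of the 92904 methylated reads at 35 to 37 CpGs and 7320 of the 25433 at 55 to 57 CpGs. The mCpGs of windows up to 10% lay lower over all 51091 windows, with a median of 18.2% where the window had 1 mCpG and 40.6% where it had 2 or more. In windows above 10% mCpGs were 34.3% of the covered CpGs at 35 to 37 CpGs and 23.5% at 55 to 57 CpGs. Among the windows above 10%, CpG number and window methylation were only weakly related across windows (Spearman's rho -0.0378 over 1655 windows, which share clusters and depth, as a description). Over all 51091 windows rho was -0.0513.

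Inside a window above 10%, methylated and non-methylated CpGs stood side by side. Of the 46363 covered CpGs in these 1655 windows 59.6% had no methylated read, and 8.66% were at a level of 10% or less but not at 0. The mCpGs were 3.65% up to a level of 25%, 4.95% between 25 and 50%, 7.89% between 50 and 75%, 8.23% between 75 and 90% and 7.02% above 90%. As a group these windows thus held sites at every level, with those at 0 the most frequent. Even in the 308 windows above 40% methylation, 34.6% of covered CpGs had no methylated read, and the mCpGs there had a median of 80.5%.

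Windows with a single mCpG looked different. In the 1314 windows with exactly 1 mCpG that site had a median of 18.4%, with quartiles of 13.3 and 36.4%, and 7.69% of these sites were above 75%. In windows above 10% methylation 48.0% of mCpGs were above 75%. Of the 1314 windows 1301 were themselves up to 10%. Both groups are defined by methylation, so that this difference follows in part from the grouping. A single mCpG rested on a median of 20 reads, and at 20 reads an mCpG needs only 3 methylated ones. With a minimum of 5 reads per site in place of 10, 14.5% of windows held an mCpG, and when at least 2 mCpGs were asked for, 5.48% did.

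The mCpGs of a window mostly reached 1 end of its covered CpGs but not the other. In 1915 windows there were at least 4 mCpGs and at least 2 other covered CpGs, and in 1615 of these (84.3%, 82.6 to 85.9%) exactly one of the outermost covered CpGs was an mCpG. Both ends were methylated in 81 windows (4.23%) and neither end in 219 (11.4%). In 898 windows (46.9%) all mCpGs formed 1 run with no other covered CpG between them. Only 1 switch between mCpGs and other covered CpGs along the window was seen in 851 windows (44.4%), and the median was 3 switches. The stretch between the first and the last mCpG had a median length of 418 bp, and a median of 91.7% of the covered CpGs inside it were mCpGs.

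The 6 windows with the most mCpGs at 35, 40, 45, 50, 55 and 57 CpGs show these arrangements. At 35 CpGs the window was on SCAFFOLD20 (1268001 to 1269000), with 25 mCpGs among 32 covered CpGs and 563 methylated of 868 reads (64.9%, 61.6 to 68.0%). At 40 CpGs it was on SCAFFOLD16 (165001 to 166000), with 25 mCpGs of 27 covered CpGs and 502 of 647 reads (77.6%), the highest methylation of any chosen window with 500 or more reads. The window before it, with 15 CpGs, was 87.8% methylated, and the one after it, with 87 CpGs of which 14 were covered, 0.851%. Methylation was thus low in the CpG-rich window that followed. Inside the window of 40 CpGs the mCpGs had on average 6.28 other CpGs within 100 bp and the other covered CpGs 6.

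At 45 CpGs the window was on SCAFFOLD9 (349001 to 350000), with 32 mCpGs of 44 covered CpGs and 361 of 877 reads (41.2%). It was the most mixed of the 6, with 11 other covered CpGs lying between its first and last mCpG. In this window mCpGs and other covered CpGs had nearly the same number of other CpGs within 100 bp, 9.59 and 9.83 on average.

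At 50 CpGs the window was on SCAFFOLD28 (255001 to 256000), with 17 mCpGs of 31 covered CpGs and 424 of 681 reads (62.3%). Its first 4 covered CpGs, within 12 bp of the start, had 0 methylated reads of 12, 12, 12 and 14. From an offset of 32 bp to one of 586 bp all 17 covered CpGs were mCpGs, and 14 of them fell in the first 500 bp, which held 18 CpGs, and 3 in the second, which held 32. The next 9 CpGs, at offsets of 603 to 766 bp, had 2 to 8 reads each and were not counted as covered, but 40 of their 49 reads were methylated. Beyond them the covered CpGs were at or near 0, and the adjoining windows, with 76 CpGs or more, were at 0 and 0.452%.

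At 55 CpGs the window was on SCAFFOLD15 (2661001 to 2662000), with 14 mCpGs of 28 covered CpGs and 150 of 501 reads (29.9%). All 14 mCpGs were in the first 500 bp, which held 16 of the 55 CpGs, and the other 39 CpGs lay in the second with no mCpG. The last mCpG, at an offset of 418 bp, was at 84.2%, with 16 of 19 reads, and the next CpG, at 490 bp, had 0 of 37 reads.

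At 57 CpGs the window was on SCAFFOLD35 (1553001 to 1554000), with 32 mCpGs of 36 covered CpGs and 552 of 1022 reads (54.0%). It stood out for its position at the upper end of the range, since 32 mCpGs were exceeded by only 1 of the 51091 windows. That one was on SCAFFOLD26 (1453001 to 1454000), with 39 CpGs, all covered, 38 mCpGs and 916 of 1391 reads (65.9%, 63.3 to 68.3%). Its CpGs were spread almost evenly over the window, 22 in the first 500 bp and 17 in the second. Neighbouring sites could still differ widely there, with 58 of 80 reads methylated (72.5%) at an offset of 405 bp and 15 of 77 (19.5%) at 412 bp.

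**Figure D3:**
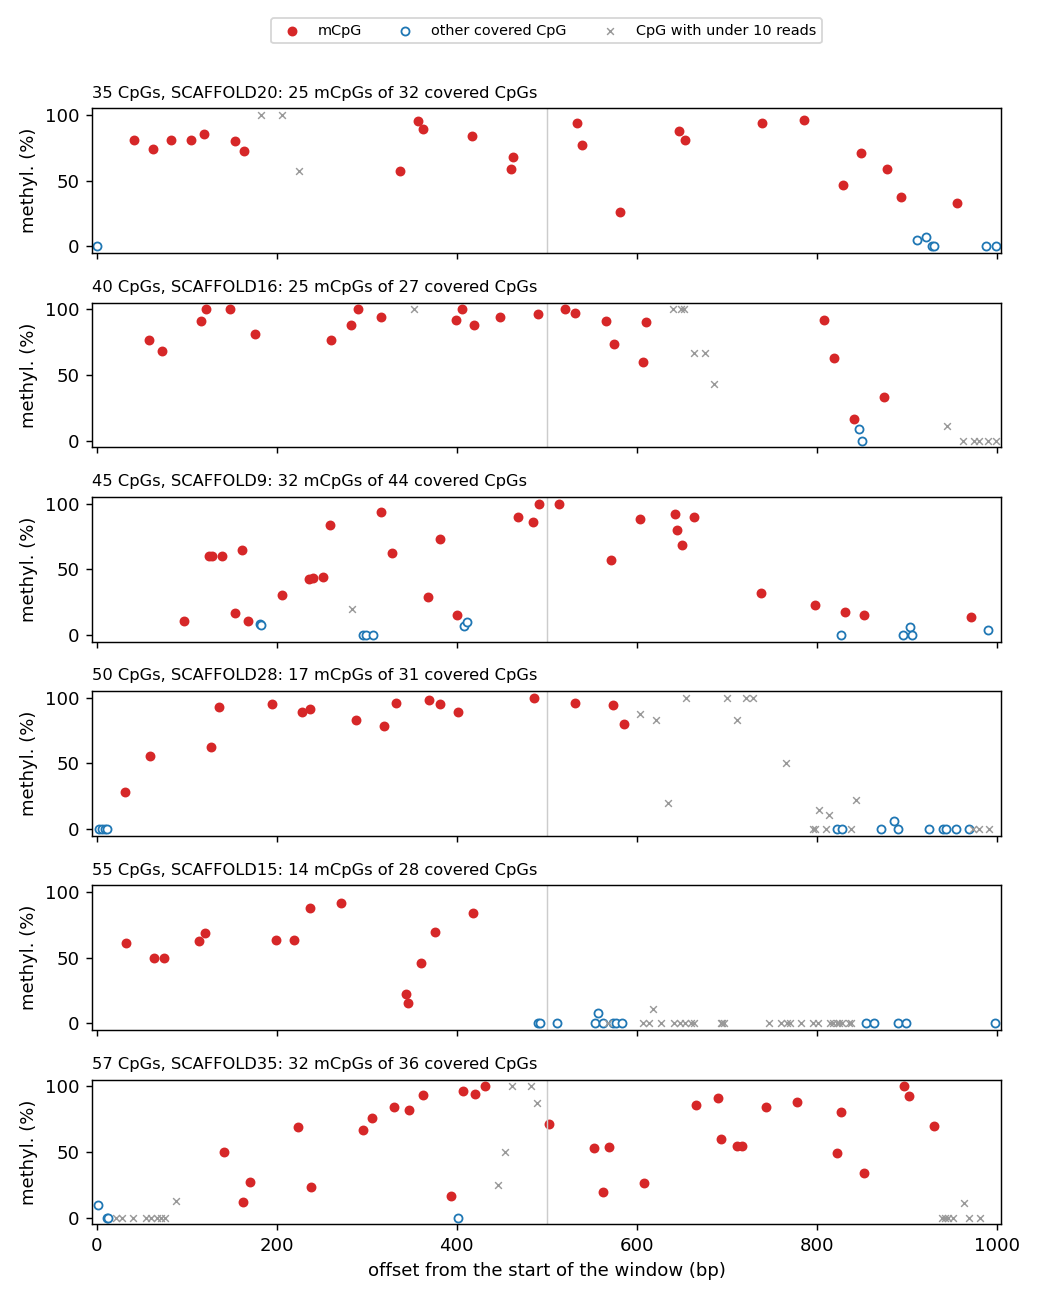
Methylation of single CpGs (vertical axes, percent of reads) by offset from the start of the window (horizontal axis, bp) in the 6 windows with the most mCpGs at 35, 40, 45, 50, 55 and 57 CpGs. Filled circles are mCpGs, open circles other covered CpGs and crosses CpGs with under 10 reads. The grey line marks 500 bp, before which all 14 mCpGs of the window with 55 CpGs lie.

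The other windows of highest methylation with 500 or more reads were of the same form. On SCAFFOLD58 (603001 to 604000, 38 CpGs) 465 of 612 reads were methylated (76.0%), and all 22 covered CpGs between its first and its last mCpG were mCpGs. The window after it, with 57 CpGs, was at 0.0909%. On SCAFFOLD7 (1902001 to 1903000, 36 CpGs) 403 of 539 reads were methylated (74.8%), with 21 mCpGs of 24 covered CpGs.

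Within windows that held both kinds of site, mCpGs lay where CpGs were sparse. There were 2783 windows with at least 2 mCpGs and at least 2 other covered CpGs, and in 2656 of them (95.4%, 94.6 to 96.2%) the mCpGs had on average fewer other CpGs within 100 bp than the other covered CpGs had. The median over windows was 4.67 CpGs around mCpGs and 10.3 around the other covered CpGs. The share was 94.8, 95.4 and 96.9% in windows of 35 to 42, 43 to 49 and 50 to 57 CpGs, and the median difference was -5.06, -5.86 and -6.88 CpGs. The contrast inside a window was thus present over the whole range of densities.

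**Figure D4:**
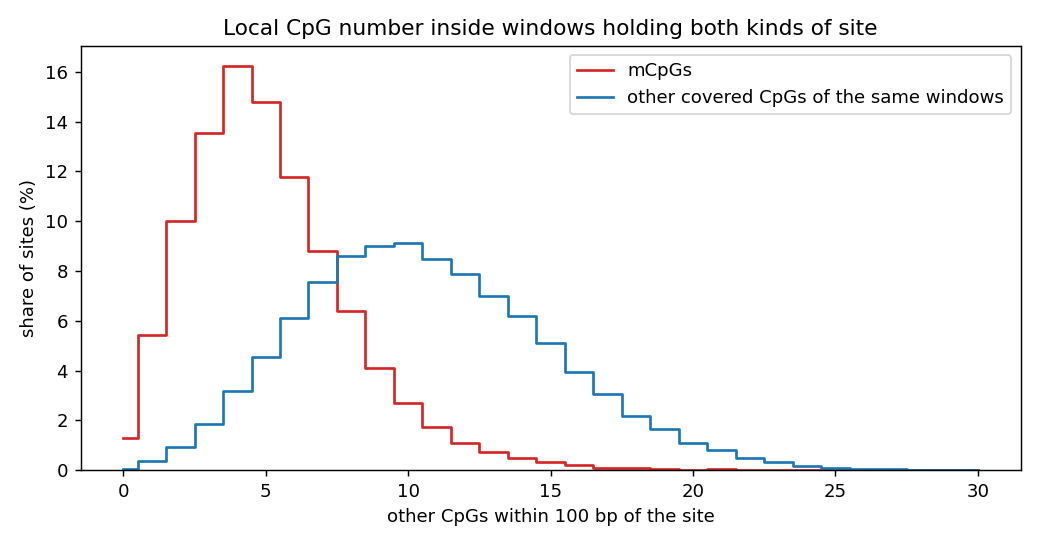
Distribution of the number of other CpGs within 100 bp (horizontal axis) for mCpGs and for the other covered CpGs of the same windows, those holding at least 2 of each (vertical axis, percent of the sites of each kind). The peak for mCpGs is at 4 CpGs, with 16.2% of sites, to the left of that of the other covered CpGs.

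The same held for single sites when all covered CpGs of the 51091 windows were sorted by local CpG number. With 0 to 3 other CpGs within 100 bp 7.82% of covered CpGs were mCpGs, with 4 to 6 it was 2.84%, with 7 to 9 0.848%, with 10 to 12 0.309% and with 13 or more 0.137%. At 0 to 3 CpGs the share was alike in windows of 35 to 42, 43 to 49 and 50 to 57 CpGs, with 7.87, 8.04 and 7.29%. At 13 or more it was 0.284, 0.150 and 0.0768%. Mean depth over the 5 classes was 40.3, 35.9, 30.3, 26.2 and 21.5 reads, and its part in the change of share was not tested.

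Few CpGs in the poorer part of a window went along with methylation. Each window was divided at its middle, and the number of CpGs in the poorer 500 bp was used, which involves no methylation value. Where the poorer 500 bp held 0 to 9 CpGs, 405 of 3485 windows were above 10% (11.6%, 10.6 to 12.7%). With 10 to 14 CpGs the share was 6.90%, with 15 to 19 CpGs 2.22%, and with 20 to 28 CpGs 0.886% (164 of 18500, 0.761 to 1.03%). Windows whose CpGs were spread evenly were therefore seldom methylated.

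This order was also seen within bands of CpG number, with 1 exception. At 35 to 42 CpGs the 4 shares were 13.3, 6.05, 2.03 and 1.18%, and at 43 to 49 CpGs 11.0, 8.53, 1.98 and 1.10%. At 50 to 57 CpGs they were 5.05, 7.81, 3.25 and 0.735%, so that the lowest class, with 24 of 475 windows (3.42 to 7.41%), was below the next one, with 99 of 1268 (6.46 to 9.41%), by a margin within overlapping intervals. A window of 50 to 57 CpGs whose poorer 500 bp held 10 to 14 CpGs was thus above 10% more often than a window of 35 to 42 CpGs with 15 to 19 there.

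In methylated windows the methylation was in the poorer part. Of 1566 windows above 10% with unequal CpG numbers and at least 4 covered CpGs on either side of the middle, the poorer 500 bp was the more methylated in 1454 (92.8%, 91.5 to 94.0%). The median methylation was 50.2% in the poorer 500 bp, with a median of 13 CpGs, and 1.25% in the richer, with 30 CpGs. Where the sides differed by at least 10 CpGs, it was so in 1183 of 1205 windows (98.2%), with medians of 56.0 and 0.781%. A window in the middle of the density range above 10% was in most cases a CpG-poor methylated stretch next to a CpG-rich non-methylated one.

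The longest distance between adjoining CpGs was slightly greater in methylated windows, with a median of 124 bp (quartiles 100 and 157) in windows above 10% and 108 bp in windows up to 10% with an mCpG, and with quartiles of 83 and 132 bp in windows without one. By that distance the share above 10% was 1.83% below 100 bp, 3.75% at 100 to under 150 bp, 5.48% at 150 to under 200 bp and 7.30% at 200 to under 300 bp. It was 3.68% (2.48 to 5.41%) at 300 bp or more, in 653 windows, so that the order did not continue. The mean CpG number differed over the first 4 of these classes, with 47.3, 44.4, 42.9 and 42.6 CpGs per window.

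Sites with under 10 reads, which do not enter the methylation of a window, showed a contrast in the same direction at a lower level. In windows above 10% they were 9.78% methylated over 139928 reads, in windows up to 10% with an mCpG 2.04%, and in windows without an mCpG 0.151%. The covered CpGs of windows above 10% were 24.5% methylated. The windows above 10% were chosen by these covered CpGs, so that the higher level of the covered CpGs follows in part from the choice. The local CpG number of the sparsely read sites was not compared.

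Methylated windows had methylated neighbours. Of 1654 windows above 10% with an adjoining window of at least 4 covered CpGs, 1426 had one above 10% (86.2%, 84.5 to 87.8%), against 5.78% of windows up to 10%. When only sites with 10 to 19 reads were used, the share was 52.0% of windows above 10% (48.4 to 55.5%). Among windows with exactly 1 mCpG the share was 38.3%, and among those without an mCpG 3.11%. Where both neighbours could be scored, 17.5% of windows above 10% had both above 10%, 69.1% had one and 13.4% had none.

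The methylated neighbour was the one with fewer CpGs. Among windows above 10% with exactly 1 of both neighbours above 10%, the methylated neighbour had fewer CpGs than the other in 1023 of 1113 (91.9%, 90.2 to 93.4%), with a median of 21 CpGs, against 59 in the other neighbour. These 1023 were the majority of the 1610 windows above 10% whose neighbours could both be scored. The window on SCAFFOLD28 described above, with 76 CpGs or more in either neighbour, was of the rarer kind without a methylated neighbour.

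Within the bands of 43 to 49 and 50 to 57 CpGs, windows with CpG-poorer neighbours were more often above 10%. At 50 to 57 CpGs 5.13% of windows were above 10% where the neighbours had under 35 CpGs on average, 2.21% where they had 35 to under 58, and 0.945% where they had 58 or more. At 43 to 49 CpGs the shares were 4.56, 3.32 and 2.34%. At 35 to 42 CpGs they were 5.94, 3.97 and 5.06%, with no single direction. Over the 3 bands together they were 5.40, 3.24 and 2.26%. The mean CpG number of the windows themselves differed there too, with 42.9, 45.3 and 48.3 CpGs.

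The surroundings of methylated windows were rich in methylation over several kbp. Around windows above 10%, 52.3% of windows at 1 kbp on either side were above 10%, 36.4% at 2 kbp upstream and 33.8% at 2 kbp downstream, and 18.7 and 18.6% at 10 kbp. Around windows up to 10% the shares were 3.46 and 3.43% at 1 kbp and 5.98 and 5.87% at 10 kbp. Mean CpG number around windows above 10% was 42.4 and 41.4 at 1 kbp and 55.1 and 55.3 at 10 kbp, so that it was lowest next to the window. Around windows up to 10% it was likewise lower at 1 kbp (47.8 and 47.6) than at 10 kbp (53.0 and 52.6). Upstream and downstream here mean lower and higher scaffold positions, since the strand of genes was not used.

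**Figure D5:**
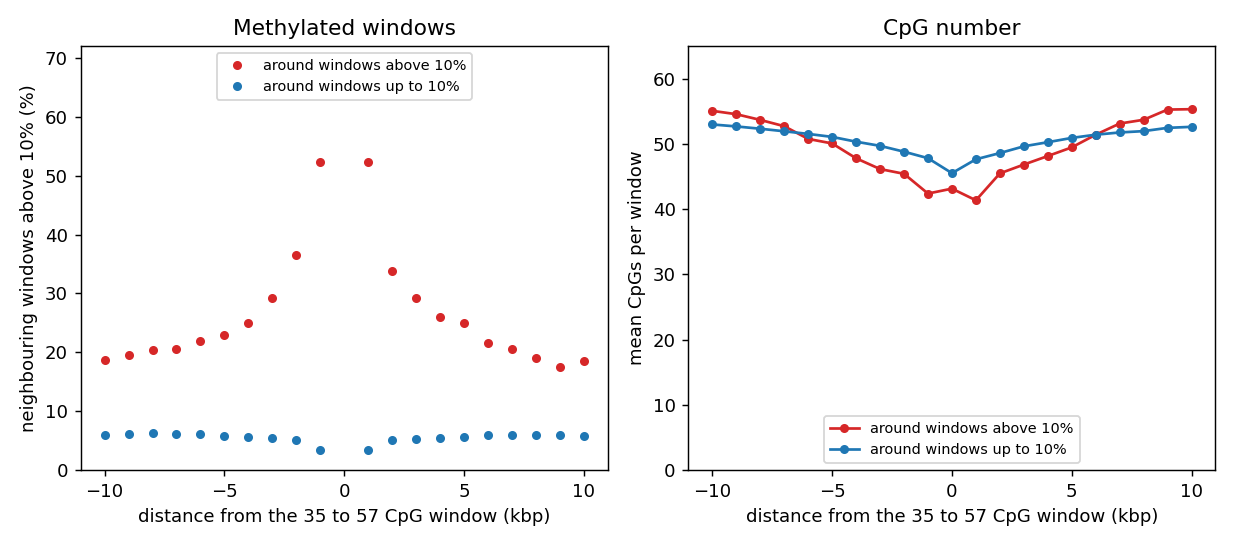
Share of windows above 10% (left, percent) and mean number of CpGs per window (right) by distance in kbp from windows of 35 to 57 CpGs above 10% and up to 10%. Around windows above 10% the share is 52.3% at 1 kbp and 18.7% at 10 kbp upstream, and it is below 7% at every distance around windows up to 10%. The value at distance 0 is left out on the left because it defines the groups.

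Long scaffolds held most of the methylated windows. On the 46 scaffolds of 1 Mbp or more, measured to the last CpG, 1376 of 21744 windows were above 10% (6.33%, 6.01 to 6.66%). On scaffolds of 100 kbp to 1 Mbp the share was 1.17%, on those of 20 to 100 kbp 0.423%, and on those under 20 kbp 0.286% (10 of 3493). Mean depth was 29.3, 28.1, 28.8 and 31.6 reads per covered CpG in the same order, and mean CpG number 46.5, 44.8, 44.4 and 44.3, so that depth was not ordered like the share of methylated windows, while CpG number was highest where that share was highest.

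On scaffolds of 1 Mbp or more the steps in CpG number were steeper. There 11.8% of windows of 35 to 37 CpGs were above 10% and 2.15% of those of 55 to 57 CpGs, a difference of 9.65 percentage points (8.34 to 11.0). The share with an mCpG was 23.7 and 7.58%. On scaffolds of 100 kbp to 1 Mbp the shares above 10% were 1.75 and 0.648% (1.11 points, 0.506 to 1.67), and on shorter ones no difference was detectable at these low counts. This split was chosen after the values were seen.

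The long scaffolds also differed among themselves. Over the 47 scaffolds with at least 200 chosen windows the share above 10% had a median of 5.49%. It was highest on SCAFFOLD28 with 58 of 372 windows (15.6%, 12.3 to 19.6%), where 35.8% of chosen windows held an mCpG. On SCAFFOLD32 it was 0 of 348 windows, which allows up to 0.862%, and on SCAFFOLD45 0 of 201, which allows up to 1.49%. SCAFFOLD28 and SCAFFOLD32 were alike in mean CpG number (46.2 and 46.3) and depth (29.1 and 29.6 reads per covered CpG). The difference extended to windows of every density, with 12.4% of all scored windows above 10% on SCAFFOLD28, 0.871% on SCAFFOLD32 and 0.716% on SCAFFOLD45.

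A few windows could be tied to genes through lists given by the study. It listed methylated clusters that lie outside its main gene set OGS2, with any gene of the earlier set OGS1.2 at that place, and candidate positions of methylation outside CpGs. The clusters and the candidate positions were found from the same reads. Methylation in windows that overlap them is thus not an independent observation, and only its arrangement is described. Windows of 35 to 57 CpGs overlapped 5 clusters and held 1 of the positions. The study places that position inside a further methylated cluster. The lists do not say what these genes encode, and only for the candidate position do they give a place within the gene, which is coding.

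The clearest border was at NV31640, on SCAFFOLD6 (1450001 to 1451000), a window of 52 CpGs with 182 of 597 reads methylated (30.5%, 26.9 to 34.3%). Its first 500 bp held 40 CpGs and no mCpG, and its second held 12 CpGs, all of them mCpGs. The mCpGs had on average 4.75 other CpGs within 100 bp, against 15.8 around the other covered CpGs. At NV18219, on SCAFFOLD152 (210001 to 211000, 36 CpGs, 46.6% methylated), the order was the opposite along the scaffold. Its first 500 bp, with 15 CpGs, held all 10 mCpGs, the preceding window was 92.4% methylated and the following one 0.617%.

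At NV50511 a pair of windows on SCAFFOLD101 lay on either side of a methylated window of 11 CpGs (59.8%). The window of 37 CpGs (506001 to 507000, 8.38%) had 5 mCpGs among the 5 CpGs of its second 500 bp and 2 mCpGs among the 32 of its first. The window of 41 CpGs (504001 to 505000, 13.2%) was an exception, with 10 of its 12 mCpGs in the second 500 bp, which held 32 CpGs, and 2 in the first, which held 9. Its mCpGs had a median of 40.2%. At NV16191, on SCAFFOLD35 (1406001 to 1407000, 42 CpGs, 42.5%), 14 mCpGs lay in the first 500 bp with 16 CpGs and 8 in the second with 26.

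The candidate position outside CpGs was in the coding part of Nasvi2EG009383, in the window at 385001 to 386000 of SCAFFOLD18 with 43 CpGs and 90 of 742 reads methylated (12.1%, 9.97 to 14.7%). All 6 mCpGs were in the second 500 bp, which held 12 CpGs, and none in the first, which held 31. The following window, with 12 CpGs, was 50.2% methylated, with 10 mCpGs of 12 covered CpGs.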

How the data were processed

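Whole-genome bisulfite sequencing of 1 pool of 50 adult females (24 h, strain AsymCX) was deposited by the authors as 1 table of raw counts: per CpG, the reads with an unconverted C and those with a T, both strands and both lanes summed, without normalization. Per the study's methods, reads were trimmed to 75 bp, aligned with BWA to converted scaffolds with at most 4 mismatches, and kept when unique and free of indels. The labels name CASAVA 1.7. The version of BWA, the release of the scaffolds and the treatment of PCR duplicates are not given in the sources used here. Duplicate reads would make the intervals too narrow. Unique alignment leaves repeats with few reads, so that windows in repeats can fall below the coverage limit. Each column of counts belonged to the pool, and depth had a median of 11 reads over all listed CpGs and 22 over the covered CpGs of the windows studied, where 1 read is 4.55% of a site.

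Windows, covered CpGs (10 or more reads), mCpGs (more than 10% methylated) and pooled percentages were computed with Python 3.11.15, NumPy 2.4.6 and pandas 2.3.3. With 1 pool under 1 condition no test between groups was made, and shares have 95% Wilson intervals. The limit for a count of 0 is 3 counts over the total. The windows named were the 3 with the most mCpGs, the 3 of highest methylation with 500 or more reads, the one with the most mCpGs at 35, 40, 45, 50, 55 and 57 CpGs, and those with an mCpG that overlap the study's listed clusters outside OGS2 or candidate positions outside CpGs. The windows and lists were chosen with earlier results of these data known. The scripts were tested on simulated data. No sequence is shown, since no genome of the files' build was used here. Other minimums of reads, thresholds, window sizes and sets of scaffolds were tried as alternatives.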

Additional observations from a re-analysis of the deposited data

How the results depend on the processing

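The main values were a pooled methylation of 0.956%, 8.05% of windows with an mCpG, 3.24% above 10%, a difference of 3.64 percentage points between 35 to 37 and 55 to 57 CpGs, 95.4% of windows with fewer CpGs around mCpGs, and 86.2% of windows above 10% with a methylated neighbour. Each was computed again under 11 to 13 alternatives. The difference stayed positive in all of its 11, while the other results are percentages, which cannot change sign. The values that left their own interval follow in that order of results. With a minimum of 5 reads per site they were 0.932, 14.5, 3.05 and, for local CpGs, 90.1%. With 20 reads they were 0.910 and 6.97%, with local CpGs at 93.8% and neighbours at 83.1%. With only sites of 10 to 19 reads they were 0.820, 5.95 and 2.33%, with neighbours at 52.0%. Where at least 80% of CpGs had to be covered they were 0.781, 9.46 and 2.66%, with a difference of 4.29 points and local CpGs at 94.6%. Thresholds of 20% gave 6.45 and 1.83%, 2.19 points, 96.9 and 71.1%. Windows of 2000 bp with the same range of CpGs per bp gave 1.49, 13.4 and 5.74%, 4.61 points, 97.9 and 66.8%. The mean of the sites' own percentages gave 0.934% and 3.01% above 10%, windows shifted by 500 bp 0.968% pooled, and leaving out the 7769 CpGs above 170 reads 0.976%. Without scaffolds under 20 kbp the values were 1.002, 8.52 and 3.46%. At least 2 mCpGs were present in 5.48%, and with CpGs counted within 50 bp the local share was 96.3%. On scaffolds of 1 Mbp or more, an alternative added after the data were seen, they were 1.55, 15.2 and 6.33%, with 9.65 points. A higher threshold and a longer window change the counts by construction; other causes were not tested. Leaving out a replicate was not possible, and no paired analysis was possible because both lanes of the 1 pool are summed in the table. Depth limits single sites, since 10 reads resolve no step below 10 percentage points.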
